A study of Homo sapiens with 45 samples.

Results

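TALL-1 is an established human line of T-cell acute lymphoblastic leukaemia (T-ALL). The comparison described here sets 3 TALL-1 libraries from cells given 1 uM BRM014 for 6 h against 3 libraries from cells given 0.01% DMSO, the solvent, for 6 h, and both groups were chosen by their labels. These 6 libraries belong to a set of 45 from T-ALL lines in which chromatin remodelling by the BAF complex was blocked by drug or by CRISPR guides. The lines CCRF-CEM and KOPT-K1 received the same drug and solvent for 6 h, with 3 libraries in each group. Their values appear here only where effects in TALL-1 are set beside theirs or tested against theirs. No edit or transgene is given for the TALL-1 cells of either group. The labels call the 3 libraries of a group biological replicates, and since all come from 1 line and 1 dose, the p-values below speak of the spread between cultures. In the gene tests that spread was estimated over the 6 groups of all 3 lines together, not from the TALL-1 cultures alone.

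BAF complexes are assemblies that use ATP to slide and evict nucleosomes, so that transcription factors can reach regulatory DNA. SMARCA4 or SMARCA2 is the motor of every such complex, and BRM014 blocks the ATPase activity of both. Canonical BAF carries ARID1A or ARID1B and acts mainly at enhancers, PBAF carries PBRM1 and ARID2, and the non-canonical form carries BICRA or BICRAL. T-ALL cells are immature T cells, and in many of them NOTCH1 signalling, MYC and a circuit of lineage factors such as GATA3, RUNX1, MYB, TCF7 and the E proteins sustain growth.

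Expression is given as TPM (transcripts per 1e+06), a level scaled by gene length that sums to the same total in every library. The TALL-1 libraries held 19.7 to 27.0 M recovered reads. A change is the mean log2(TPM + 1) with BRM014 minus that with DMSO, with its standard error from limma, and "rose" or "fell" is used only for a Benjamini-Hochberg adjusted p under 0.05 over the 16241 genes tested. On this scale the change of genes at a few TPM is understated. These are bulk libraries, so fewer cells of a kind and less RNA per cell cannot be told apart. The first principal component separated BRM014 from DMSO and took 68.4% of the variance, and the second, with 11.5%, set replicate 3 of both groups apart from the rest. DMSO replicate 3 held 1.57% of its TPM in ribosomal RNA genes, while the 5 other libraries held 0.148 to 0.350%. The metallothionein MT1X also stood lower in both libraries numbered 3, with 299, 455 and 49.4 TPM in the BRM014 libraries, against 616, 992 and 52.1 TPM in the DMSO libraries. Mitochondrially encoded mRNAs took 6.12 ± 0.08% of TPM with BRM014 and 5.56 ± 0.20% with DMSO (SD, n = 3 each), and the 2 groups did not overlap (exact permutation p = 0.1, two-sided, the smallest that 3 against 3 can give).

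The cells carried the RNA of T cells. CD3D and CD3E, signalling chains of the T cell receptor complex, were among the abundant mRNAs. CD3E averaged 1175 ± 99.99 TPM with BRM014 and 1038 ± 47.1 TPM with DMSO, and CD3D averaged 944 ± 32.4 TPM with BRM014 and 998 ± 18.6 TPM with DMSO (SD, n = 3 each), and neither change passed the test. CD3D and CD3E do not stand for the whole list, since of 16 T lineage markers 2 rose and 9 fell, with a median change of -0.24, the 9 including CD5, CD6, CD7, TCF7 and GATA3, described below. The sum of the 16 was 3877 to 4258 TPM with BRM014 and 4019 to 4263 TPM with DMSO. Most markers of blood cells other than T cells were low. Of 14 myeloid markers 13 stayed under 1 TPM in all 6 libraries, as did 9 of 10 B cell markers, with MS4A1 at or near 0. The B cell marker that reached 1 TPM was CD79A, the signalling chain of the B cell receptor, with 11.5, 11.7 and 7.46 TPM in the BRM014 libraries, against 24.4, 25.9 and 15.2 TPM in the DMSO libraries. It fell, and of the 4 tested B cell markers it was the 1 called. The sum of the B cell list was 8.05 to 12.2 TPM with BRM014 and 16.3 to 26.6 TPM with DMSO. The sum of 12 natural killer and cytotoxic markers was 16.2 to 18.6 TPM with BRM014 and 15.5 to 22.6 TPM with DMSO. Of 6 tested members of that list 2 rose and 3 fell. Of 12 epithelial and fibroblast markers 10 stayed under 1 TPM in all 6 libraries, with EPCAM at 0, and the list summed to 116.4 to 125.3 TPM with BRM014 and 179 to 218.4 TPM with DMSO. Most of that was VIM, an intermediate filament protein that lymphocytes also make, with 120.5, 115 and 124 TPM in the BRM014 libraries, against 179, 171 and 211 TPM in the DMSO libraries, and the other member above 1 TPM was PDGFRB. Both fell.

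BRM014 changed a large share of the transcriptome within 6 h. Of 16241 genes, 7461 (45.9%) were called, of which 4324 (26.6% of those tested) rose and 3137 (19.3%) fell. Large changes leaned downward, with 611 genes (3.76%) at least 2-fold lower and 380 genes (2.34%) at least 2-fold higher on the log2(TPM + 1) scale. The median change over all genes was 0.03 and the median standard error 0.09. All 3 BRM014 libraries lay beyond all 3 DMSO libraries for 9118 genes (56.1%), among them 600 of the 611 and 378 of the 380. TPM fixes the sum of each library, and with libraries rescaled by the median ratio the split turned to 3483 higher and 3741 lower, so that higher calls made up 48.2% of calls in place of 58.0%. Without replicate 3 of both groups 3470 genes rose and 2651 fell, with 374 and 608 at least 2-fold. The shares 26.6% and 19.3% are the background for each gene group below.

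**Figure D1:**
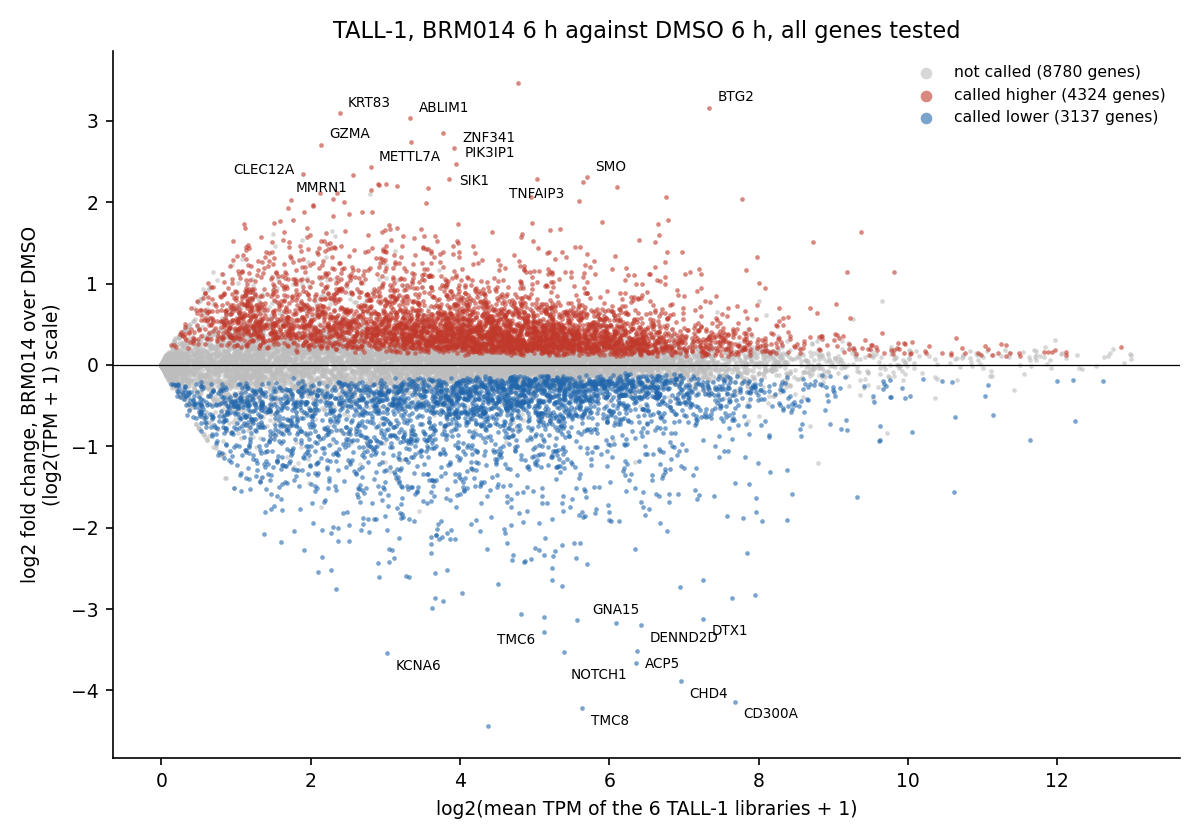
Each point is 1 of 16241 genes in TALL-1, with the mean level on the x axis, as log2(TPM + 1), and the change with BRM014 against DMSO on the y axis, as a log2 difference. Coloured points passed the limma test, with 4324 above 0 and 3137 below, and the labelled genes of largest change include TMC8 and CD300A at the bottom and BTG2 at the top.

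The largest decrease among protein-coding genes was that of TMC8, a transmembrane channel-like protein. It had 4.03, 5.06 and 3.29 TPM in the BRM014 libraries, against 91.2, 96.1 and 93.0 TPM in the DMSO libraries. The change was -4.22 ± 0.14 (SE), limma adjusted p = 9.2e-12. TMC6, its partner in a complex that controls zinc in lymphocytes and keratinocytes, lies beside it and changed by -3.28 ± 0.08 with 5.69, 6.40 and 4.53 TPM in the BRM014 libraries, against 62.6, 64.2 and 59.3 TPM in the DMSO libraries. The 2 genes overlap, and whether reads were counted by strand is not given in the sources used here, so reads of the shared stretch cannot be assigned between them. CD300A, an inhibitory receptor of leukocytes, had 20.0, 22.8 and 20.2 TPM in the BRM014 libraries, against 405, 399.7 and 356 TPM in the DMSO libraries. The DMSO libraries were thus at least 350 TPM and the BRM014 libraries near 20 TPM, and the change was -4.14 ± 0.12 (SE), limma adjusted p = 3.4e-12.

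CHD4 encodes the remodelling motor of the NuRD complex, which joins nucleosome sliding to histone deacetylation. Its level was 13.1, 15.9 and 15.6 TPM in the BRM014 libraries, against 226, 243 and 229.7 TPM in the DMSO libraries. No library of 1 group came near the other, and the change was -3.88 ± 0.24 (SE), limma adjusted p = 1.1e-08. NOTCH1, the receptor that drives many T-ALL cases, had 9.69, 11.5 and 11.8 TPM in the BRM014 libraries, against 149, 157 and 146 TPM in the DMSO libraries, a change of -3.66 ± 0.09 (SE), limma adjusted p = 8.9e-13. DTX1, a direct NOTCH target that feeds back on the pathway, had 28.1, 28.6 and 35.7 TPM in the BRM014 libraries, against 271, 266 and 285 TPM in the DMSO libraries, a change of -3.12 ± 0.13. Also among the 12 largest decreases were KCNA6, a potassium channel (-3.55), ACP5, an acid phosphatase of osteoclasts and macrophages (-3.51), DENND2D, which acts on Rab proteins (-3.20), and GNA15, a G protein of blood cells (-3.17). The 12 were picked among genes called and with each BRM014 library below each DMSO library, so both traits were set by the rule. The highest limma adjusted p among them was 1.1e-08, for CHD4.

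The largest increase among protein-coding genes was that of BTG2, an antiproliferative gene that shortens mRNA tails and is induced by p53. It had 296, 264 and 309.7 TPM in the BRM014 libraries, against 33.8, 30.0 and 30.8 TPM in the DMSO libraries. Every BRM014 library was more than 7 times any DMSO library, and the change was 3.16 ± 0.08 (SE), limma adjusted p = 9.7e-13. PIK3IP1, which restrains phosphatidylinositol 3-kinase in resting T cells, had 24.6, 21.2 and 29.7 TPM in the BRM014 libraries, against 4.05, 3.34 and 3.63 TPM in the DMSO libraries (2.47 ± 0.15). TNFAIP3, the ubiquitin editor A20 that shuts off NF-kB, had 51.1, 53.5 and 55.2 TPM in the BRM014 libraries, against 10.5, 10.7 and 9.39 TPM in the DMSO libraries (2.28 ± 0.07). These 3 genes restrain growth or signalling in lymphocytes. SMO, the transducer of hedgehog signals, had 84.5, 82.8 and 89.1 TPM in the BRM014 libraries, against 15.5, 15.3 and 18.6 TPM in the DMSO libraries (2.31 ± 0.09). SIK1, a kinase that holds back CREB coactivators, changed by 2.29 ± 0.20, but its near-identical copy SIK1B changed by 2.17 ± 0.21 and reads may be split between them. ZNF341, which promotes transcription of STAT3, averaged 25.2 ± 0.240 TPM with BRM014 and 3.13 ± 0.0916 TPM with DMSO, and ABLIM1, an actin-binding protein, averaged 17.0 ± 2.23 TPM with BRM014 and 1.19 ± 0.0958 TPM with DMSO (SD, n = 3 each). The rest of the 12 were KRT83, a hair keratin (3.10), GZMA, a granzyme of killer cells (2.71), METTL7A (2.43), CLEC12A, a lectin receptor of myeloid cells (2.35), and MMRN1, a platelet protein (2.33). The same rule, applied upward, picked these 12, and the highest limma adjusted p among them was 2.0e-07, for SIK1.

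**Figure D2:**
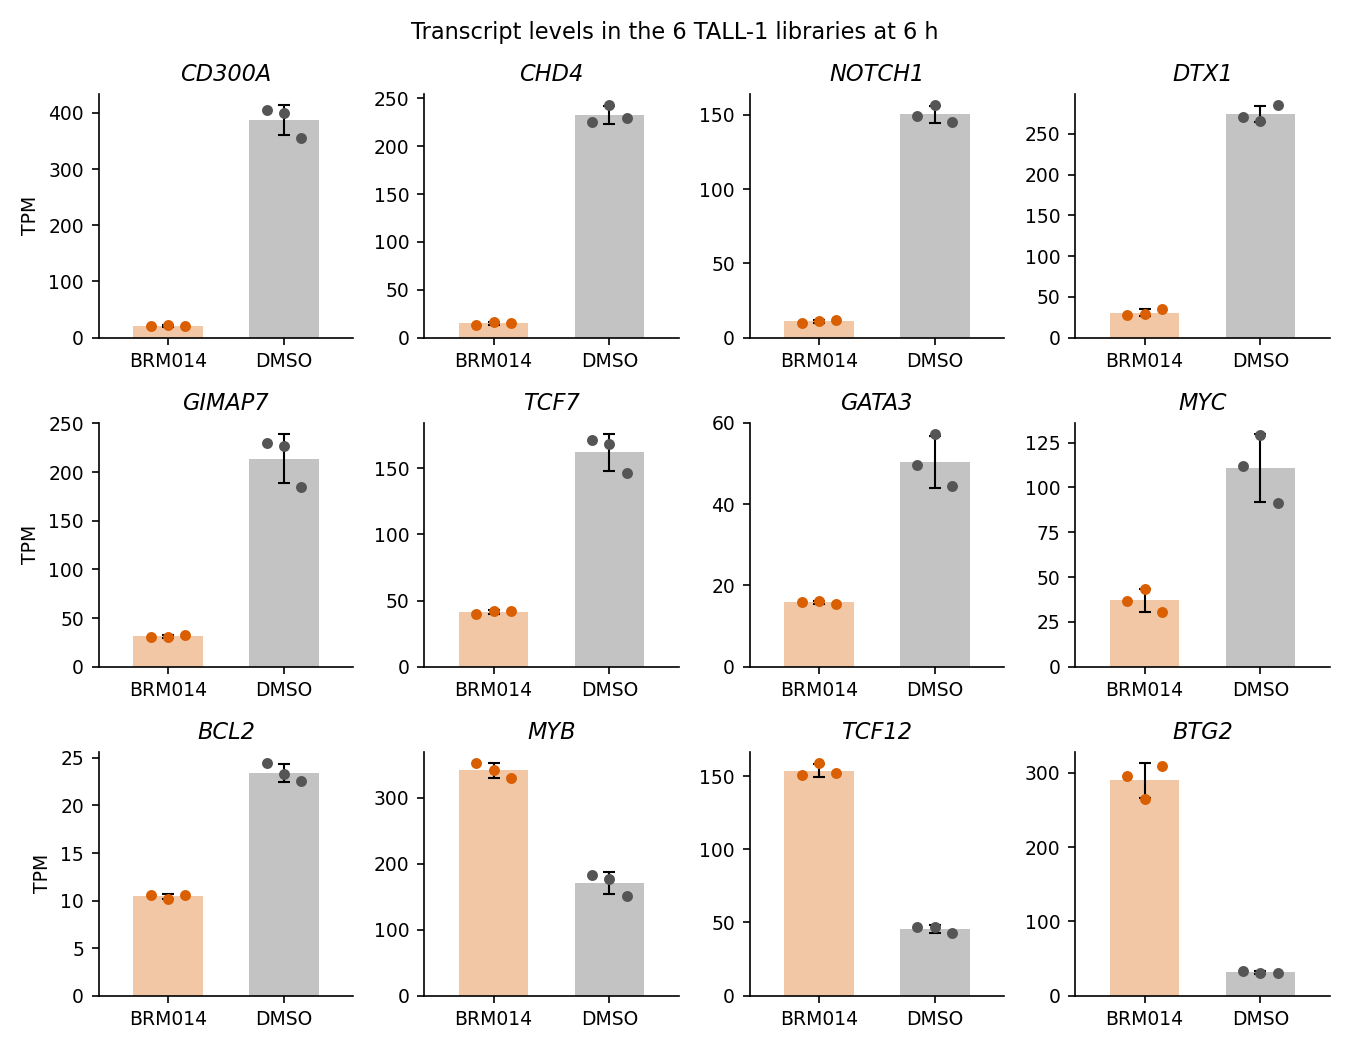
Each panel shows 1 gene, with TPM on the y axis the 3 BRM014 libraries as points left of the 3 DMSO libraries, bars at the group means and error bars of 1 SD. The libraries of the 2 groups do not overlap in any panel, with CD300A, CHD4, NOTCH1, DTX1, GIMAP7, TCF7, GATA3, MYC and BCL2 lower and MYB, TCF12 and BTG2 higher with BRM014.

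The genes above differed in the sequence at their start sites. Promoters are shown for 2 GIMAP genes, which fell together, for CD300A, CHD4 and NOTCH1, which were among the 12 largest decreases, and for BTG2, which rose most. They are the 250 bases before the start that the RefSeq promoter table uses, build GRCh38.p14, read 5′ to 3′ on the strand of the gene. For CHD4 that start is not the outermost one, since the annotated span of the gene reaches 6607379 and so holds the window. No promoter of TMC8 was used here. Capitals mark CG dinucleotides, the sites of DNA methylation.
GIMAP4 promoter (chr7:150567140-150567389, plus strand): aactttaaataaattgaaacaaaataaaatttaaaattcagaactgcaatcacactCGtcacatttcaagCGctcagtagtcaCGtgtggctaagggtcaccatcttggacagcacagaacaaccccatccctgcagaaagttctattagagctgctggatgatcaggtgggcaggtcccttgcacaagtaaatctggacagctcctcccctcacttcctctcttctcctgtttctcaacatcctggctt
GIMAP7 promoter (chr7:150514622-150514871, plus strand): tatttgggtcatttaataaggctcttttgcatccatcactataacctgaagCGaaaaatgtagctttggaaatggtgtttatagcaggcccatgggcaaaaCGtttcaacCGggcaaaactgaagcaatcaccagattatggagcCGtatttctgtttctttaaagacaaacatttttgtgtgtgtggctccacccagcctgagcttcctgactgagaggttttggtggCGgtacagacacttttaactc
CD300A promoter (chr17:74466123-74466372, plus strand): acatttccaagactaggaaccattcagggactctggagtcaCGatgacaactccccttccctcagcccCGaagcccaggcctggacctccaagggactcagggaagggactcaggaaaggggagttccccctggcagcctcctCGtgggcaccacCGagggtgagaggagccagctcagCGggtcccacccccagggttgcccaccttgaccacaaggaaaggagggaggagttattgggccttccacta
CHD4 promoter (chr12:6606452-6606701, minus strand): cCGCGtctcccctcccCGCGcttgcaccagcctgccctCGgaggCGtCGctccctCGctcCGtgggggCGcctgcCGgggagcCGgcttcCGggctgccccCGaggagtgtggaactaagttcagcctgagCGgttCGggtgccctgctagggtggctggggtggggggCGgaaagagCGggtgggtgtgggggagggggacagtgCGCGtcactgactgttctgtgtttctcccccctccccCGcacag
NOTCH1 promoter (chr9:136546049-136546298, minus strand): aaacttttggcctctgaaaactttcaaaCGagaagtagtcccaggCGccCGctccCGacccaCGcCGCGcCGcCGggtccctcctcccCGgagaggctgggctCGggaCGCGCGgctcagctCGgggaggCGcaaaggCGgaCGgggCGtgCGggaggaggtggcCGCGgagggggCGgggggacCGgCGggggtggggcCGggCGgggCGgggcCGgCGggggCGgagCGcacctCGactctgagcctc
BTG2 promoter (chr1:203305269-203305518, plus strand): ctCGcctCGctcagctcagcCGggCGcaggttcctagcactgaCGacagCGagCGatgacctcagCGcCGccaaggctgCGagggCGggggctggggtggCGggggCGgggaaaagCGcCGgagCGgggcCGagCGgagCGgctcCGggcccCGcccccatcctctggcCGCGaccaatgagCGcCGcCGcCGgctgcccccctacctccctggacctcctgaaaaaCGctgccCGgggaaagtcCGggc
The GIMAP4, GIMAP7 and CD300A windows held 3, 5 and 5 CG dinucleotides, and the CHD4, NOTCH1 and BTG2 windows held 21, 33 and 30. The ratio of observed CG to that given by the C and G content was 0.256 for GIMAP4 and 0.941 for NOTCH1. Of 10018 promoters of tested protein-coding genes that matched by symbol, 11.8% had a ratio under 0.4. This share was 23.7% for 371 genes at least 2-fold lower and 17.4% for 213 genes at least 2-fold higher. Letters of 5 motifs were searched on both strands, and none of the 5 contains another. The ETS motif CCGGAAG was in 6.20% of promoters of genes at least 2-fold lower, in 7.04% of those at least 2-fold higher and in 16.6% of all. The GC box GGGCGG was in 71.2%, 59.2% and 66.3% of the same 3 sets, CCAAT in 26.4%, 34.7% and 35.7%, the RUNX core TGTGGT in 8.90%, 8.45% and 7.88%, and TATAAA in 6.47%, 6.10% and 5.51%. These shares describe the windows and were not tested.

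More subunits of the targeted complex rose than fell, by small amounts. In the cBAF list 10 of its 20 tested members rose and 2 fell, with a median change of 0.19. SMARCA4, the main motor, averaged 268 ± 12.2 TPM with BRM014 and 206 ± 2.88 TPM with DMSO (SD, n = 3 each), a change of 0.38 ± 0.05 (SE), limma adjusted p = 7.6e-06. SMARCA2, its paralogue, had 19.5, 22.8 and 22.5 TPM in the BRM014 libraries, against 13.5, 11.9 and 13.4 TPM in the DMSO libraries (0.70 ± 0.08). ARID1A, the subunit that recruits the complex to enhancers, had 217, 219 and 226 TPM in the BRM014 libraries, against 145, 137 and 146 TPM in the DMSO libraries (0.63 ± 0.05). All 3 BRM014 libraries of these genes were above all 3 DMSO libraries. ARID1B changed by 0.23 ± 0.05 (adjusted p = 0.0029) and SMARCE1 by 0.42 ± 0.04. The 2 members that fell were DPF3, at 0.265 TPM with BRM014 against 0.779 TPM with DMSO, and BCL7C (-0.40 ± 0.15, adjusted p = 0.035), which lost its call in several alternatives. After median-ratio rescaling, and with the replicate block, 4 members fell. Of 7 subunits of PBAF and the non-canonical complex, BICRAL rose most, with 40.1, 40.7 and 45.0 TPM in the BRM014 libraries, against 13.3, 12.3 and 13.5 TPM in the DMSO libraries (1.61 ± 0.06 (SE), limma adjusted p = 3.8e-11). BICRA (0.54) and BRD7 of PBAF (0.28) also rose, and PHF10 of PBAF fell (-0.67).

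Among other remodellers the change of CHD4 stood alone in size. In that list of 21, 8 rose and 5 fell, with a median of 0.11. CHD2 (0.84), CHD7, mutated in CHARGE syndrome (0.67), CHD9 (0.65) and BAZ2B (0.63) rose by less than 1 on the log2 scale. The Polycomb list had 5 higher and 7 lower of 28, with CBX6 (-1.002) and PCGF5 (-0.93) lower and PCGF3 (0.62), PCGF1 (0.54) and JARID2 (0.50) higher. Its median of 0.05 changed sign under median-ratio rescaling.

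The transcription factors that define T-ALL split in direction. Of 54 listed, 41 were tested, 11 rose and 15 fell. TAL1, LMO2 and LYL1, drivers in other T-ALL cases, were at or near 0 in every TALL-1 library. TCF7, the NOTCH-induced factor that commits cells to the T lineage, had 40.0, 42.5 and 41.9 TPM in the BRM014 libraries, against 171, 168 and 146 TPM in the DMSO libraries (-1.94 ± 0.11 (SE), limma adjusted p = 3.5e-09). GATA3, which acts beside it, had 15.8, 16.1 and 15.4 TPM in the BRM014 libraries, against 49.7, 57.2 and 44.4 TPM in the DMSO libraries (-1.61 ± 0.08), and BCL11B, which locks in T identity, had 23.3, 22.4 and 25.8 TPM in the BRM014 libraries, against 58.1, 60.4 and 57.0 TPM in the DMSO libraries (-1.26 ± 0.08). All 3 factors of T lineage commitment were lower in every BRM014 library. ETS1 fell by 1.59 and MYC, the growth regulator downstream of NOTCH1, fell to 36.9, 43.4 and 30.7 TPM in the BRM014 libraries, against 112, 129 and 91.3 TPM in the DMSO libraries (-1.55 ± 0.15 (SE), limma adjusted p = 6.9e-07).

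Other factors of the same circuit rose. MYB, needed for T-ALL growth, had 352, 342 and 329.9 TPM in the BRM014 libraries, against 183, 177 and 152 TPM in the DMSO libraries (1.001 ± 0.09 (SE), limma adjusted p = 1.7e-07). TCF12, the E protein HEB, had 151, 159 and 152 TPM in the BRM014 libraries, against 47.0, 47.1 and 42.6 TPM in the DMSO libraries (1.73 ± 0.05 (SE), limma adjusted p = 6.3e-12). ID2 and ID3, which sequester E proteins, rose as well, to 16.3 TPM with BRM014 against 5.43 TPM with DMSO for ID2 (1.43 ± 0.15) and 44.8 TPM with BRM014 against 19.6 TPM with DMSO for ID3 (1.16 ± 0.16). RUNX1 averaged 33.2 ± 2.35 TPM with BRM014 and 35.9 ± 1.42 TPM with DMSO (SD, n = 3 each), its groups overlapped, and its change of -0.11 ± 0.06 did not pass the test (adjusted p = 0.17), though it did after median-ratio rescaling. CBFB, the partner of all RUNX factors, fell (-0.66), as did FLI1 of the ETS family (-1.381) and LEF1 (-0.56).

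NOTCH receptors fell while NOTCH target genes went in both directions. Of 24 tested genes of the pathway 6 rose and 9 fell, 7 of them by at least 2-fold. NOTCH3, itself a NOTCH target, had 71.1, 86.7 and 70.3 TPM in the BRM014 libraries, against 384, 396 and 363 TPM in the DMSO libraries (-2.32 ± 0.15 (SE), limma adjusted p = 1.3e-08), and NOTCH2 averaged 7.15 TPM with BRM014 against 15.5 TPM with DMSO (-1.02). The feedback inhibitor NRARP had 3.92, 3.04 and 2.17 TPM in the BRM014 libraries, against 16.3, 15.4 and 9.79 TPM in the DMSO libraries (-1.87 ± 0.18), and HES5, a repressor induced by NOTCH, had 6.78, 7.51 and 5.86 TPM in the BRM014 libraries, against 22.5, 22.6 and 21.7 TPM in the DMSO libraries (-1.598 ± 0.07). With DTX1 these 3 feedback and effector genes were lower in every BRM014 library. HES1, another such repressor, rose to 56.5, 58.0 and 53.6 TPM in the BRM014 libraries, against 37.3, 39.2 and 36.3 TPM in the DMSO libraries (0.56 ± 0.14 (SE), limma adjusted p = 0.0035). RBPJ, the DNA-binding partner of NOTCH, rose by 0.43, and HEY1 averaged 13.7 TPM with BRM014 against 14.5 TPM with DMSO with no call. PTCRA, a NOTCH target in thymocytes, stayed under 1 TPM in every library.

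Signalling molecules of the T cell receptor mostly fell, while chains of the CD3 complex did not. In this list 9 of its 39 tested members rose and 21 fell, with a median change of -0.24, which makes 53.8% lower. SASH3, a lymphocyte adaptor, had 51.9, 49.8 and 40.9 TPM in the BRM014 libraries, against 356, 348 and 351 TPM in the DMSO libraries (-2.87 ± 0.10 (SE), limma adjusted p = 1.6e-11). SLA, an adaptor that lowers receptor levels, had 114, 108 and 108 TPM in the BRM014 libraries, against 401, 412 and 434 TPM in the DMSO libraries (-1.91 ± 0.06), and GRAP2, an adaptor that binds SLP-76, had 54.9, 49.1 and 54.4 TPM in the BRM014 libraries, against 132, 144 and 131 TPM in the DMSO libraries (-1.35 ± 0.07). ZAP70, the kinase that binds the activated receptor, averaged 64.2 TPM with BRM014 against 158 TPM with DMSO (-1.28). CD3G moved the other way, with 634, 643 and 604 TPM in the BRM014 libraries, against 227, 225 and 209 TPM in the DMSO libraries (1.51 ± 0.05 (SE), limma adjusted p = 7.5e-12), and so did CD247, the zeta chain, with 151 TPM with BRM014 against 62.4 TPM with DMSO (1.26). RASGRP1, which links the receptor to RAS, rose, with 3.64, 4.13 and 2.96 TPM in the BRM014 libraries, against 0.372, 0.916 and 0.457 TPM in the DMSO libraries (1.54 ± 0.15). CD3G and CD247 thus rose while ZAP70 and these 3 adaptors fell.

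More surface molecules of T cells fell than rose. In this list 7 of its 34 tested members rose and 19 fell, with a median change of -0.30 (55.9% lower). CD6, a coreceptor that binds CD166, had 10.00, 9.17 and 10.7 TPM in the BRM014 libraries, against 73.4, 73.4 and 65.8 TPM in the DMSO libraries (-2.71 ± 0.11 (SE), limma adjusted p = 4.7e-11). CD48, a ligand of SLAM-family receptors, averaged 9.39 ± 1.03 TPM with BRM014 and 64.0 ± 4.42 TPM with DMSO, and CD44, the hyaluronan receptor, averaged 0.437 ± 0.0773 TPM with BRM014 and 6.41 ± 1.16 TPM with DMSO (SD, n = 3 each). CD5, an inhibitory receptor, had 11.6, 9.43 and 11.3 TPM in the BRM014 libraries, against 38.8, 37.1 and 34.5 TPM in the DMSO libraries (-1.68 ± 0.08), and CD7 averaged 110.2 TPM with BRM014 against 243 TPM with DMSO (-1.14). CD38, an NAD-consuming ectoenzyme, was an exception, with 169.6 TPM with BRM014 against 49.0 TPM with DMSO (1.78), as was the activation marker CD69 with 16.8 TPM with BRM014 against 5.72 TPM with DMSO (1.401). In the list of cortical thymocyte genes 2 of 17 rose and 7 fell, and 1 rose without BRM014 replicate 1 or 3 or without any 1 of the DMSO libraries. CD8A, the coreceptor, had 16.2, 16.5 and 14.9 TPM in the BRM014 libraries, against 53.1, 55.6 and 52.0 TPM in the DMSO libraries (-1.69 ± 0.08), DNTT, which adds bases at rearranging receptor genes, averaged 51.0 ± 5.71 TPM with BRM014 and 138 ± 9.35 TPM with DMSO (SD, n = 3 each; -1.42), and SH2D1A, the adaptor SAP, changed by -1.27. LZTFL1 fell (-2.13) and overlaps the receptor gene CCR9. CD1D, which presents lipids, rose (23.7, 23.7 and 21.7 TPM in the BRM014 libraries, against 5.74, 6.55 and 6.52 TPM in the DMSO libraries, 1.73 ± 0.08).

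More genes of migration and adhesion fell than rose. Of 24 tested homing genes 15 fell (62.5%) and 2 rose, with a median of -0.43. CXCR4, the receptor for CXCL12 that holds T-ALL cells in marrow, had 180.0, 156 and 182 TPM in the BRM014 libraries, against 557, 529 and 481 TPM in the DMSO libraries (-1.59 ± 0.10 (SE), limma adjusted p = 6.3e-09). CCR8 had 6.46, 4.48 and 4.15 TPM in the BRM014 libraries, against 57.1, 55.5 and 36.1 TPM in the DMSO libraries (-3.06 ± 0.17). CORO1A, an actin regulator of lymphocytes, had 122, 153 and 143 TPM in the BRM014 libraries, against 441, 504 and 633 TPM in the DMSO libraries (-1.90 ± 0.11), and the integrin chain ITGA4 averaged 10.2 ± 0.674 TPM with BRM014 and 52.0 ± 5.64 TPM with DMSO (SD, n = 3 each). All BRM014 libraries of these 4 genes were under all DMSO libraries. The integrin chain ITGAL fell by 2.22. The 2 that rose were CXCR3, at 2.29 TPM with BRM014 against 0.165 TPM with DMSO (1.48 ± 0.18), and RHOH (0.87).

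All 7 tested genes of the GIMAP family, GTPases of lymphocytes, fell by at least 2-fold, with a median of -2.27 against 0.03 over all genes. GIMAP7 had 30.9, 30.1 and 32.4 TPM in the BRM014 libraries, against 229.7, 227 and 185 TPM in the DMSO libraries (-2.73 ± 0.16 (SE), limma adjusted p = 4.2e-09). GIMAP4 had 1.02, 1.53 and 0.817 TPM in the BRM014 libraries, against 12.1, 14.0 and 9.61 TPM in the DMSO libraries (-2.60 ± 0.13), and GIMAP2 had 28.9, 28.3 and 23.7 TPM in the BRM014 libraries, against 139, 144 and 116 TPM in the DMSO libraries (-2.26 ± 0.10). The level of GIMAP7 in DMSO libraries was the highest of the family, but the changes of all 7 lay between -2.73 and -2.02. GIMAP1 and GIMAP5 share exons with the readthrough gene GIMAP1-GIMAP5, so their reads cannot be told apart fully. The genes lie side by side on chromosome 7 of GRCh38, from GIMAP8 at 150450630 to the end of GIMAP5 at 150743646, and no other tested protein-coding gene lies between them. The nearest such genes on the left, LOC728743 (0.57) and ZNF775 (0.94), rose, REPIN1 changed by -0.05, and KCNH2 on the right changed by -0.69. The 8 GIMAP promoters in RefSeq, the readthrough included, had CG ratios of 0.135 to 0.443.

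Runs of neighbouring genes that fell by at least 2-fold were also seen elsewhere. With a minimum of 3 adjacent tested protein-coding genes there were 12 such runs with 47 genes, the GIMAP run of 8 being the longest, and 1 run of 5 genes that rose. TMC6 and TMC8 headed a run on chromosome 17 with SYNGR2 (-2.02) and TK1, thymidine kinase (-1.01), and next to it AFMID changed by -0.86 and BIRC5 by 0.19. CD300A began another, with CD300C (-2.27), RAB37 (-1.26) and SLC9A3R1 (-1.60). A run on chromosome 12 joined OAS3 (-1.07), OAS2 (-1.01), DTX1 (-3.12) and RASAL1 (-3.10). The share of such runs that any set of genes would give was not tested.

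**Figure D3:**
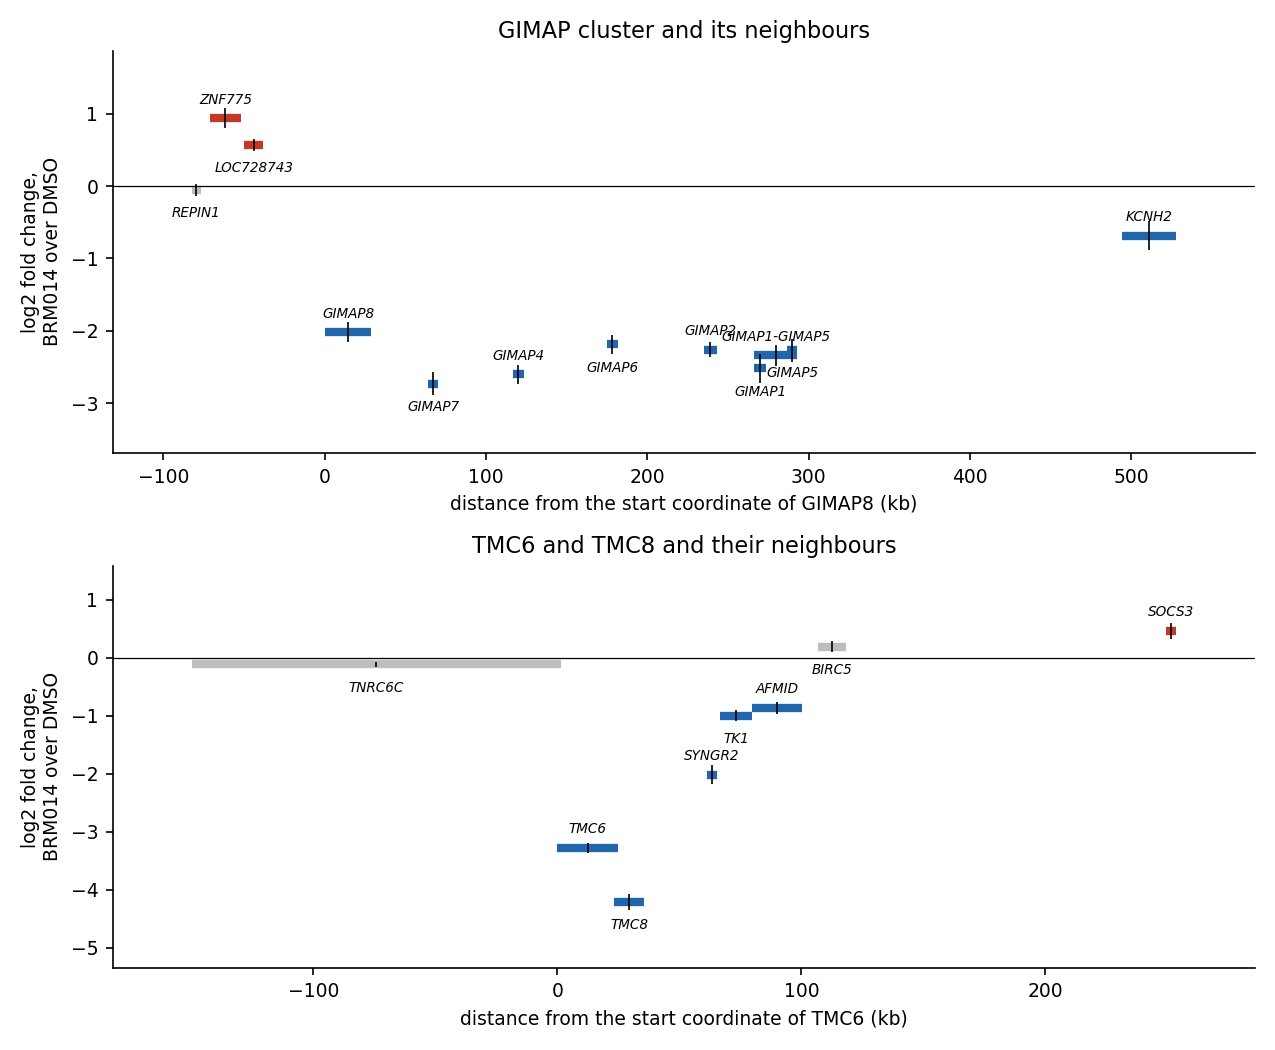
The x axis is the distance in kilobases from the start of GIMAP8 (upper panel) or TMC6 (lower panel), each bar spans 1 tested protein-coding gene, and the y axis is its log2 change with BRM014 against DMSO with its SE. The 8 GIMAP entries sit between -2.73 and -2.02 with flanking genes between -0.69 and 0.94, and in the lower panel TMC6, TMC8, SYNGR2 and TK1 lie below -1.

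The shared gamma and beta chains of cytokine receptors fell, while more members of the cytokine signalling list rose than fell. In this list 16 of its 32 tested members rose and 8 fell, with a median change of 0.13. IL2RG, the gamma chain shared by receptors for interleukins 2, 4, 7, 9, 15 and 21, had 112, 114 and 105 TPM in the BRM014 libraries, against 397, 385 and 384 TPM in the DMSO libraries (-1.81 ± 0.06 (SE), limma adjusted p = 7.8e-12). IL2RB had 1.85, 1.56 and 1.92 TPM in the BRM014 libraries, against 15.6, 15.7 and 15.7 TPM in the DMSO libraries (-2.59 ± 0.09), and JAK3, the kinase that binds the gamma chain, averaged 0.489 TPM with BRM014 against 2.99 TPM with DMSO (-1.42). These 3 partners in 1 receptor were lower in every BRM014 library. IL4R fell (-1.33), and IL7R, the receptor of the main thymocyte survival factor, rose to 34.6 TPM with BRM014 against 23.4 TPM with DMSO (0.54 ± 0.13). SOCS1, an inhibitor of JAK kinases, had 7.18, 6.03 and 8.32 TPM in the BRM014 libraries, against 1.90, 2.03 and 2.79 TPM in the DMSO libraries (1.34 ± 0.16), and STAT3 (-0.99) and STAT6 (-1.17) fell.

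More antigen presentation genes fell than rose, and interferon genes were mixed. Of 19 tested genes of MHC class I presentation 12 fell (63.2%) and 3 rose, with a median of -0.33. The immunoproteasome subunit PSMB8 had 5.67, 6.02 and 6.28 TPM in the BRM014 libraries, against 16.9, 18.7 and 17.3 TPM in the DMSO libraries (-1.42 ± 0.06 (SE), limma adjusted p = 4.2e-11). Its partners PSMB9 (-1.27) and PSMB10 (-1.18) also fell. IRF1, which activates these genes, had 19.3, 19.8 and 19.1 TPM in the BRM014 libraries, against 68.6, 65.6 and 68.7 TPM in the DMSO libraries (-1.75 ± 0.04 (SE), limma adjusted p = 8.9e-13). In the interferon list 10 of 34 rose and 14 fell, with IFIT2 (1.401) and ISG20 (1.19) higher and XAF1 (-1.08) and OAS3 (-1.07) lower. Among 20 NF-kB factors and targets 5 rose and 6 fell. LTB, lymphotoxin beta, had 6.28, 9.16 and 8.66 TPM in the BRM014 libraries, against 33.5, 43.8 and 68.9 TPM in the DMSO libraries (-2.41 ± 0.20), while BIRC3, an inhibitor of apoptosis, rose (1.25 ± 0.11) beside TNFAIP3.

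More listed genes of MYC and ribosome biogenesis fell than rose. In this list of 40, 24 fell (60.0%, against 19.3% of all genes) and 1 rose, with a median of -0.27. The lower count was 19 without replicate 3 of both groups and 28 after median-ratio rescaling. ODC1, the polyamine enzyme and a MYC target, had 113, 127 and 130.3 TPM in the BRM014 libraries, against 323, 362 and 345 TPM in the DMSO libraries (-1.47 ± 0.11 (SE), limma adjusted p = 4.8e-08). DKC1, which modifies ribosomal RNA, changed by -0.62 ± 0.08 and LDHA by -0.68 ± 0.16. The member that rose was MXD4, a MYC antagonist, with 34.6, 31.0 and 52.3 TPM in the BRM014 libraries, against 15.0, 16.9 and 18.0 TPM in the DMSO libraries (1.16 ± 0.14). Cytosolic ribosomal protein genes did not fall, since 21 of 51 rose and none fell, with a median of 0.11, but only 4 rose after median-ratio rescaling or with limma-voom on the reads 12 without replicate 3 of both groups and 13 without BRM014 replicate 1. With the replicate block 41 rose. The largest such change was that of RPL24 (0.24 ± 0.05).

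In the lists of stress and metabolic genes more members fell than rose, except in cholesterol synthesis. Of 24 tested ATF4 and amino acid stress genes 13 fell and 1 rose, which lost its call without BRM014 replicate 3, with a median of -0.48. SLC7A1, an arginine transporter, had 55.5, 65.1 and 64.2 TPM in the BRM014 libraries, against 142, 161 and 150.3 TPM in the DMSO libraries (-1.28 ± 0.14 (SE), limma adjusted p = 3.3e-06), TRIB3 changed by -1.09 ± 0.09, and SLC3A2, the heavy chain of amino acid exchangers, by -1.06 ± 0.13. ATF5 averaged 536 TPM with BRM014 against 1022 TPM with DMSO (-0.93), but it overlaps IL4I1 and NUP62. In glycolysis and hypoxia 13 of 29 fell and 3 rose. VEGFA, the hypoxia-induced growth factor of vessels, had 64.2, 66.9 and 74.8 TPM in the BRM014 libraries, against 234, 235 and 187 TPM in the DMSO libraries (-1.65 ± 0.13), and the glycolytic enzymes PFKP (-0.97) and ENO2 (-0.99) fell. Of 16 chaperones 6 fell (10 with the replicate block) and 1 rose, with HSPD1 (-0.80), DNAJA1 (-0.73) and HSP90AB1 (-0.64) lower and DNAJB4 (0.44) higher. Cholesterol synthesis had 3 higher and none lower of 23, which became 17 higher when replicate number was fitted as a block, 15 when only the TALL-1 groups were fitted, and 1 without replicate 3 of both groups. The 3 were SC5D (0.87), STARD4 (0.83) and PMVK (0.70).

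How many cell cycle genes were called depended on the setting. Of 42 genes of DNA replication 3 rose and 12 fell, and of 38 of mitosis 3 rose and 7 fell. With the replicate block the counts were 5 higher and 21 lower for replication and 8 higher and 18 lower for mitosis. Without BRM014 replicate 1 or DMSO replicate 3 the lower count for replication was 7, and without DMSO replicate 1 the higher count was 1. The lower count for mitosis was 3 without BRM014 replicate 3 or DMSO replicate 2 and 13 without DMSO replicate 3. UHRF1, which keeps DNA methylation through replication, had 38.6, 39.3 and 43.8 TPM in the BRM014 libraries, against 101, 103 and 112 TPM in the DMSO libraries (-1.36 ± 0.10 (SE), limma adjusted p = 4.8e-08), and TK1 had 15.3, 17.7 and 16.9 TPM in the BRM014 libraries, against 32.4, 33.6 and 37.4 TPM in the DMSO libraries (-1.01 ± 0.09). BUB1 (0.95) and TTK (0.68), kinases of the spindle checkpoint, rose, and PTTG1, securin, fell (-0.84). Both G1 regulators that are T-ALL dependencies in mice were lower. CDK6 had 68.6, 80.3 and 80.8 TPM in the BRM014 libraries, against 145, 159.6 and 158 TPM in the DMSO libraries (-1.003 ± 0.07 (SE), limma adjusted p = 4.0e-08), and CCND3 averaged 198 ± 30.8 TPM with BRM014 and 366 ± 30.7 TPM with DMSO (SD, n = 3 each; -0.89 ± 0.09). The inhibitor CDKN2D rose (0.59 ± 0.13). CDKN1B (0.22) and RBL2 (0.29) were called higher but lost the call after median-ratio rescaling.

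The BCL2 family had 2 members higher and 7 lower of 14. BCL2, the survival protein, had 10.6, 10.1 and 10.6 TPM in the BRM014 libraries, against 24.5, 23.3 and 22.6 TPM in the DMSO libraries (-1.10 ± 0.07 (SE), limma adjusted p = 1.1e-08). BMF, which binds and blocks it, had 14.0, 12.0 and 13.3 TPM in the BRM014 libraries, against 3.64, 3.87 and 3.58 TPM in the DMSO libraries (1.58 ± 0.09 (SE), limma adjusted p = 4.0e-09). The BCL2 libraries with BRM014 were thus under, and those of BMF above, every DMSO library. The death-promoting members PMAIP1 (-0.76) and BID (-0.68) fell, and the survival member BCL2L2 rose (0.62).

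Early response and feedback genes had no common direction. Of 22 immediate early and AP-1 genes 7 rose and 6 fell. FOS, the AP-1 subunit, had 11.0, 8.67 and 17.0 TPM in the BRM014 libraries, against 1.73, 2.60 and 1.09 TPM in the DMSO libraries (2.22 ± 0.20 (SE), limma adjusted p = 2.8e-07), and TOB1, which like BTG2 slows the cycle, had 73.9, 71.5 and 84.5 TPM in the BRM014 libraries, against 19.1, 18.1 and 17.1 TPM in the DMSO libraries (2.02 ± 0.11). PIM2 rose (1.35) and IER2 fell (-1.13). Of 24 p53 targets 8 rose and 6 fell, with SESN1 (1.01) and ZMAT3 (1.004) higher and PHLDA3 (-0.98) lower, and without BRM014 replicate 1 only 3 fell. In the RAS and MAPK list 4 of 18 rose and 5 fell. RASA1, a brake on RAS, had 145, 160.2 and 149 TPM in the BRM014 libraries, against 49.2, 52.7 and 46.3 TPM in the DMSO libraries (1.597 ± 0.07), DUSP6, a phosphatase induced by ERK, rose (0.96 ± 0.25), and DUSP7 (-1.34) and DUSP2 (-0.88) fell. Of 28 genes of phosphatidylinositol 3-kinase signalling 10 rose and 7 fell. AKT1 had 80.4, 83.3 and 89.1 TPM in the BRM014 libraries, against 168, 167 and 189 TPM in the DMSO libraries (-1.04 ± 0.09), the lymphocyte catalytic subunit PIK3CD fell (-1.30) with the regulatory subunit PIK3R5 (-1.82), and PIK3R3, which overlaps a readthrough gene, was higher (1.66) beside PIK3IP1.

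**Figure D4:**
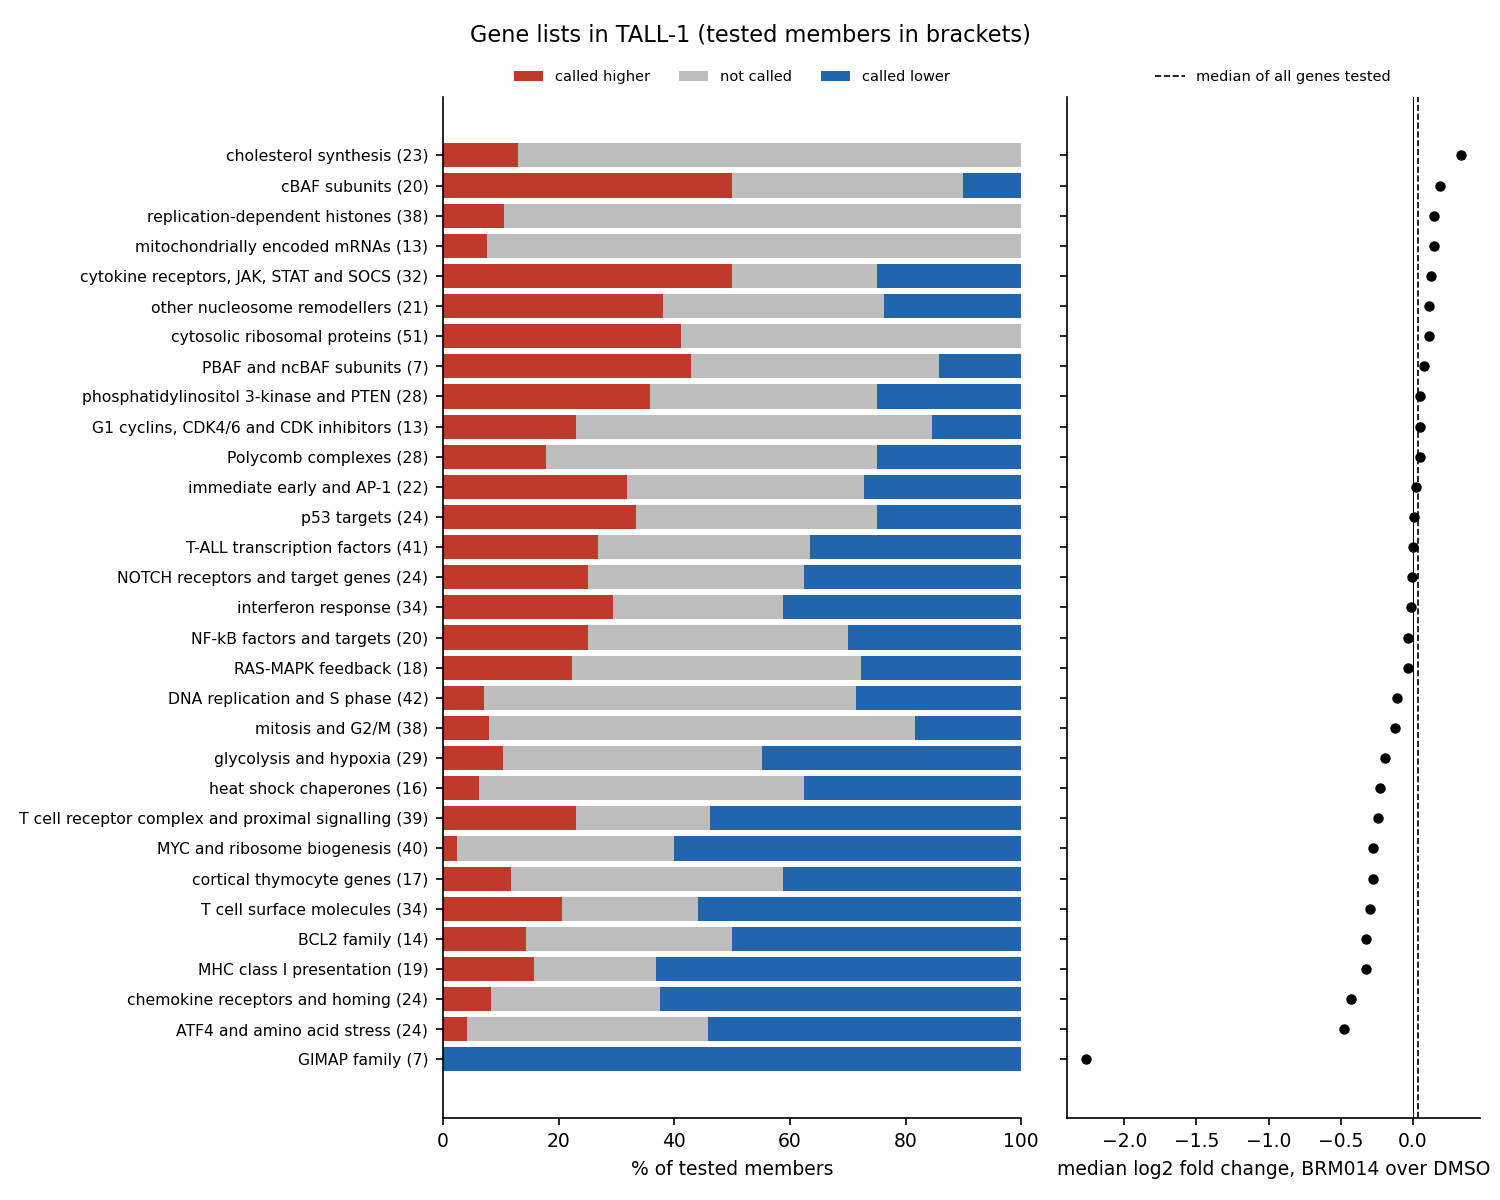
Each row is 1 gene list in TALL-1, with the number of tested members in brackets; the left panel gives the percent of members called higher (red), not called (grey) and called lower (blue) with BRM014 against DMSO, and the right panel the median log2 change of the list, with a dashed line at the median of all genes, 0.03. The GIMAP bar is blue throughout with a median of -2.27, and the medians of ATF4 and amino acid stress, -0.48, and of homing genes, -0.43, come next on the left.

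Some genes were close to absent in 1 group. By a rule of at most 0.5 TPM in all libraries of 1 group and at least 2 TPM in all of the other, 9 genes were on with BRM014 and low with DMSO, and 12 were low with BRM014. KRT83 had 8.16, 8.20 and 8.75 TPM in the BRM014 libraries, against 0.0587, 0.172 and 0.0585 TPM in the DMSO libraries, and GZMA had 6.97, 7.19 and 5.65 TPM in the BRM014 libraries, against 0.123, 0.240 and 0.122 TPM in the DMSO libraries. CLEC12A, BMPR1B, a receptor for bone morphogenetic proteins, C4BPB, a complement regulator, and the non-coding LOC107986338 were next, with BRM014 means of 5.24, 4.37, 4.13 and 3.39 TPM, against DMSO means of 0.192, 0.312, 0.345 and 0.299 TPM. The rise of these was therefore to a few TPM only. In the other direction KCNA6 had 0.303, 0.397 and 0.103 TPM in the BRM014 libraries, against 16.1, 15.9 and 10.1 TPM in the DMSO libraries, and PDGFRB, the platelet-derived growth factor receptor, had 0.249, 0.324 and 0.372 TPM in the BRM014 libraries, against 8.57, 7.52 and 7.44 TPM in the DMSO libraries. CD300C, RBPJL and the non-coding LOC107985448 and LINC01734, which overlap each other, had DMSO means of 4.00 to 6.31 TPM and BRM014 means under 0.5 TPM.

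Most large effects in TALL-1 were called in the same direction in the other lines. In CCRF-CEM 4694 genes rose (28.9%) and 3398 fell (20.9%), and in KOPT-K1 3721 rose (22.9%) and 2466 fell (15.2%). Of the 611 genes at least 2-fold lower in TALL-1, 367 were called lower in both other lines and 102 in neither. Of the 380 at least 2-fold higher, 228 were called higher in both and 66 in neither. The genes at least 2-fold lower in both TALL-1 and CCRF-CEM numbered 216, which is 35.4% of TALL-1's and 37.6% of CCRF-CEM's, and those shared with KOPT-K1 numbered 164, or 26.8% and 43.7%. For genes at least 2-fold higher the shared numbers were 109 with CCRF-CEM (28.7% and 40.4%) and 99 with KOPT-K1 (26.1% and 49.7%). Over all 16241 genes, 575 were called at least 2-fold lower in CCRF-CEM and 375 in KOPT-K1. Those at least 2-fold higher numbered 270 and 199. Across 16241 genes the effects in TALL-1 had a Pearson correlation of 0.59 with those in CCRF-CEM and 0.56 with those in KOPT-K1, from libraries that share no sample.

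Effects differed by test in a sizeable share of genes. The effect in TALL-1 differed from that in CCRF-CEM for 3311 genes (20.4%) and from that in KOPT-K1 for 3472 genes (21.4%). With the replicate block, for which the numbers of CCRF-CEM passed the pairing check and those of the other lines did not, the effect was higher in TALL-1 for 2458 genes and lower for 2879 when set against CCRF-CEM, and higher for 2578 and lower for 2858 when set against KOPT-K1. The next counts take genes chosen for a 2-fold change in TALL-1, which favours a larger effect there. No such counts were made for genes chosen in another line. By both tests the effect was larger in TALL-1 than in both lines for 265 of 611 lower and 150 of 380 higher genes. Of these, 43 and 20 were under 1 TPM in the other lines. ACP5 was an example: it changed by -3.51 ± 0.12 in TALL-1, with 12.8, 14.1 and 10.0 TPM in the BRM014 libraries, against 166, 159 and 127 TPM in the DMSO libraries. In CCRF-CEM it had 0.155 TPM with BRM014 and 0.0187 TPM with DMSO, and the difference of effects was -3.69 ± 0.18 (SE, adjusted p = 2.9e-09). In KOPT-K1 it had 0.0543 TPM with BRM014 and 0.0205 TPM with DMSO. PDGFRB likewise had 0 TPM with BRM014 and 0.00527 TPM with DMSO in CCRF-CEM and 0.0109 TPM with BRM014 and 0.0112 TPM with DMSO in KOPT-K1.

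Other genes changed in TALL-1 by more than in both other lines, though they also fell in at least 1 of these. RASAL1, a RAS inhibitor next to DTX1, had 5.63, 5.79 and 7.73 TPM in the BRM014 libraries, against 61.4, 60.1 and 63.4 TPM in the DMSO libraries in TALL-1, and 1.59 TPM with BRM014 and 1.36 TPM with DMSO in CCRF-CEM, a difference of -3.23 ± 0.14 (SE, adjusted p = 2.1e-09). In KOPT-K1 RASAL1 had 18.4 TPM with BRM014 and 90.0 TPM with DMSO (-2.22), a difference of -0.87 ± 0.14 (SE, adjusted p = 4.7e-04). CD300A fell by less in KOPT-K1 (-1.56) than in TALL-1, a difference of -2.58 ± 0.17 (SE, adjusted p = 9.4e-08). It also fell by less on this scale in CCRF-CEM (-3.21), a difference of -0.93 ± 0.17 (SE, adjusted p = 0.0012). In CCRF-CEM it had 2.11 TPM with BRM014 and 27.8 TPM with DMSO. The scale understates changes at a few TPM, so part of that difference may come from the scale. NOTCH1 fell in all 3 lines, by 3.66 in TALL-1, 1.32 in CCRF-CEM and 1.42 in KOPT-K1, and the difference from CCRF-CEM was -2.34 ± 0.13 (SE, adjusted p = 1.3e-08) and from KOPT-K1 -2.24 ± 0.13 (SE, adjusted p = 2.2e-08). CHD4 fell by 3.88, 1.88 and 1.94 in the same order, with differences of -2.01 ± 0.34 (SE, adjusted p = 7.3e-04) and -1.94 ± 0.34 (SE, adjusted p = 8.9e-04). Both genes thus fell most in TALL-1 by these tests. They were among the 12 largest falls in the same TALL-1 libraries, as was CD300A, so the differences are not independent of that rank. The contrasts with the 2 other lines also share the TALL-1 libraries.

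Increases also differed between lines. BTG2 rose in TALL-1 and in CCRF-CEM (2.36) but in KOPT-K1 it had 6.37 TPM with BRM014 and 6.86 TPM with DMSO, a difference of 3.25 ± 0.12 (SE, adjusted p = 1.9e-10). ABLIM1 had 6.35 TPM with BRM014 and 6.26 TPM with DMSO in CCRF-CEM, a difference of 3.00 ± 0.17 (SE, adjusted p = 1.8e-08). CTTN, cortactin, rose in TALL-1 (58.2, 57.7 and 59.3 TPM in the BRM014 libraries, against 22.1, 22.4 and 20.7 TPM in the DMSO libraries) by less than in CCRF-CEM (4.31), a difference of -2.92 ± 0.20 (SE, adjusted p = 1.2e-07). DUSP6 rose in TALL-1 (0.96) and fell in KOPT-K1 (-1.84), with a difference of 2.80 ± 0.35 (SE, adjusted p = 6.1e-05). HES1 rose in TALL-1 (0.56) and fell in CCRF-CEM (-2.77), with a difference of 3.33 ± 0.20 (SE, adjusted p = 2.2e-08).

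MYC, MYB and the E protein inhibitors set the lines apart. MYC fell in TALL-1 (-1.55) and in CCRF-CEM (-2.83), while in KOPT-K1 it had 188 TPM with BRM014 and 186 TPM with DMSO, and the difference from KOPT-K1 was -1.57 ± 0.21 (SE, adjusted p = 9.1e-05). MYB rose in TALL-1 and fell in CCRF-CEM, where it had 229 TPM with BRM014 and 281 TPM with DMSO, with a difference of 1.31 ± 0.12 (SE, adjusted p = 2.2e-06). ID3 rose in TALL-1 and fell in KOPT-K1, where it had 6.70 TPM with BRM014 and 18.1 TPM with DMSO, with a difference of 2.48 ± 0.22 (SE, adjusted p = 1.8e-06). In all, 37 genes changed at least 2-fold in TALL-1 and were called the other way in another line. They were 24 of the 380 genes higher and 13 of the 611 genes lower in TALL-1. SMO (2.31 in TALL-1, -0.39 in CCRF-CEM), IQGAP2 (1.378 and -1.07) and CD1D (1.73 and -0.61) were among those higher in TALL-1. MYOM2, a muscle protein (-1.44 in TALL-1, 0.77 in KOPT-K1), and the NOTCH1-associated non-coding RNA NALT1 (-1.52 and 1.22) were among those lower.

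**Figure D5:**
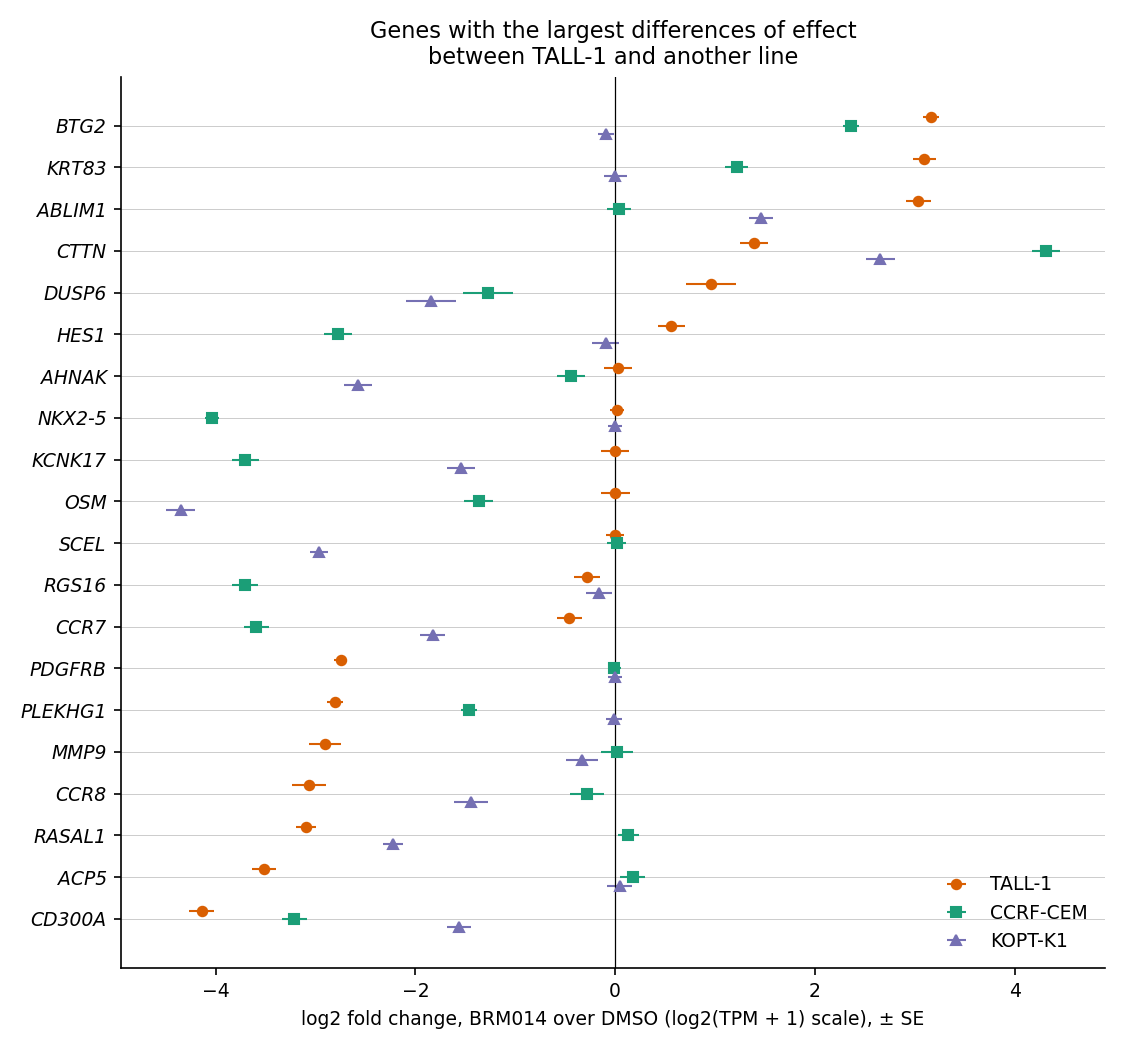
Each row is 1 of 20 genes among those whose effect in TALL-1 differed most from that in CCRF-CEM or KOPT-K1, and points give the log2 change with BRM014 against DMSO in TALL-1, CCRF-CEM and KOPT-K1 with its SE. ACP5 at -3.51, PDGFRB at -2.75 and MMP9 at -2.91 lie far left in TALL-1 and between -0.33 and 0.18 in the other lines, while NKX2-5 and OSM, at or near 0 TPM in TALL-1, lie farthest left in CCRF-CEM and in KOPT-K1 in that order.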

How the data were processed

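Poly(A) RNA of TALL-1, CCRF-CEM and KOPT-K1 was taken on RNeasy columns and sequenced from directional NEBNext Ultra II libraries, per the labels' protocols. Per the submitters' processing notes, HISAT2 2.2.1, featureCounts 2.0.3, DESeq2 1.38.2 and hg38 were used. Whether reads were counted by strand is not given in the sources used here. The authors deposited TPM for 38557 genes with a length per gene. Reads recovered from TPM and length were whole for 100% of values above 0, within 0.01.

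The test took 16241 genes, those that reached 1 TPM in 3 or more of 18 libraries. It used limma 3.58.1 in R 4.3.3 on the log2 of TPM plus 1. The fit held 6 groups, with eBayes trend and robust options and 12 residual degrees of freedom, and adjusted p-values are Benjamini-Hochberg over all genes tested. Effects of TALL-1 minus each other line were contrasts of that fit. The script was tested on simulated data.

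The members and the 38 lists were chosen with earlier results of these data known. Named genes were the 12 largest changes each way among protein-coding genes called, apart between groups and at 5 TPM or more, the 6 largest differences each way from each line, up to 5 called members of each list, 17 genes always given, genes near 0 in 1 group, and genes called the other way in another line. Other list members in the text, and genes in runs of neighbours, were picked after their values were seen. A few genes that the rule took are not reported here. Alternatives were a pseudocount of 0.1, no filter, a filter of 5 TPM, median-ratio rescaling, mitochondrial genes left out, plain eBayes, only the groups compared, a replicate block, a 2-fold threshold, each library left out, limma-voom on the recovered reads and, added after seeing the data, no replicate 3 of either TALL-1 group. Whether replicate numbers pair libraries was checked by correlating deviations from group means. TALL-1 gave 0.03, 0.09 and 0.17, and since only the third passed 0.1, which every pair must, its numbers were not taken as pairs. CCRF-CEM gave 0.12, 0.29 and 0.45 and passed, KOPT-K1 did not, and the fit has no block. Promoters came from RefSeq GRCh38.p14, and coordinates were joined by symbol.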

Additional observations from a re-analysis of the deposited data

Results flagged for a closer look

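Each gene below is one whose change in TALL-1 differed from its change in another line, by a contrast in the same limma fit with an adjusted p under 0.05, and which the naming rule picked, apart from genes not reported here. Values are the effect in TALL-1 minus that in the other line, on the log2(TPM + 1) scale, so a negative value means a lower effect in TALL-1, and where a gene is near 0 in TALL-1 the value reflects the other line.

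Set against CCRF-CEM, the effect was lower in TALL-1 for ACP5 (-3.69), RASAL1 (-3.23), MMP9 (-2.93), CTTN (-2.92), CCR8 (-2.78) and PDGFRB (-2.74). It was also lower for LOC339192 (-2.18) and LINC01260 (-1.85). Set against CCRF-CEM, the effect was higher in TALL-1 for NKX2-5 (4.05), KCNK17 (3.70), RGS16 (3.42), HES1 (3.33), CCR7 (3.14) and SIK1B (3.01). It was also higher for ABLIM1 (3.00), SIK1 (2.94), SMO (2.70), MIR4261 (2.59), IQGAP2 (2.45) and CD1D (2.33). The same held for RASGRP1 (1.97) and MYB (1.31).

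Set against KOPT-K1, the effect was lower in TALL-1 for ACP5 (-3.56), PLEKHG1 (-2.79), PDGFRB (-2.75) and NALT1 (-2.74). It was also lower for CD300A (-2.58), MYOM2 (-2.21), HAR1A (-2.00), HAR1B (-1.97) and XAF1 (-1.54). Set against KOPT-K1, the effect was higher in TALL-1 for OSM (4.35), BTG2 (3.25), KRT83 (3.10), SCEL (2.96), DUSP6 (2.80) and AHNAK (2.60). It was also higher for ID3 (2.48), CXCR3 (2.27) and PHLDA1 (1.54).

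Several of these rest on expression in 1 line. NKX2-5, a homeobox driver of CCRF-CEM, was at or near 0 in TALL-1 and had 17.8 TPM with BRM014 and 307 TPM with DMSO in CCRF-CEM. OSM, a cytokine, was at 0 in TALL-1 and had 1.601 TPM with BRM014 and 51.8 TPM with DMSO in KOPT-K1. SIK1 and SIK1B are near-identical, MIR4261 lies within RRM2, and HAR1A and HAR1B overlap, so each pair shares reads and is not independent. No cause was tested for any of these differences.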

How the results depend on the processing

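In TALL-1 the counts of genes that rose and fell stayed within 1.5 times the 4324 and 3137 reported under the alternatives other than the fold threshold, which by construction left 380 and 611. Leaving out each library in turn gave 3865 to 3990 higher and 2732 to 2945 lower, with 374 to 395 and 580 to 626 at least 2-fold. The count at least 2-fold higher was 652 with limma-voom and 685 with a pseudocount of 0.1, and the count at least 2-fold lower was 1047 with limma-voom. Both settings shrink low genes less. With limma-voom 3558 rose and 3784 fell, and without replicate 3 of both groups 3470 rose and 2651 fell. For the difference from CCRF-CEM, 1600 higher and 1711 lower became 377 and 246 at 2-fold, and 377 became 566 with the pseudocount of 0.1. For KOPT-K1, 1647 and 1825 became 266 and 295 at 2-fold, and 266 became 433 with that pseudocount. List members called numbered 419 of 796, with 114 at least 2-fold.

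A replicate block, although the numbers do not pair the TALL-1 libraries by the rule used, gave 5254 higher and 3847 lower in TALL-1, where 5 of 6 libraries correlated best with the library of their own number and DMSO replicate 1 with BRM014 replicate 2. It gave 2458 higher and 2879 lower for the difference from CCRF-CEM, whose numbers did pass the pairing check, and 2578 and 2858 for KOPT-K1. The cause was not tested.

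Of 208 genes taken by the naming rule 198 were called in TALL-1, and 186 of these were called under each of 16 alternatives where tested. The 12 that lost the call in some were CCR7, BCL7C, RBL2, CDKN1B, SC5D, STARD4, SESN2, H1-2, RPS9, KLRF1, SPINK2 and MIR4261, and 8 of them did so without replicate 3 of both groups. No direction reversed. RUNX1 was called lower after median-ratio rescaling and with limma-voom. With limma-voom the difference from CCRF-CEM was lost for CCR8, and that from KOPT-K1 for PLEKHG1. Depth limits genes under about 1 TPM, for which 3 libraries a group give few reads, and the 3 replicates limit small changes.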

Other observations

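More zinc finger genes rose than fell in TALL-1. Of 490 tested ZNF genes, most of them repressors that bind DNA through zinc fingers, 212 rose (43.3%) and 58 fell, with a median of 0.18, against 26.6% and 19.3% and a median of 0.03 over all genes. After median-ratio rescaling their median was 0.12. Protein-coding genes had 3566 higher and 2656 lower of 12152, and long non-coding genes 439 and 250 of 1905. The largest changes of all were in non-coding genes. LOC105369614 had 1.001, 1.04 and 0.387 TPM in the BRM014 libraries, against 44.4, 45.6 and 26.0 TPM in the DMSO libraries, a change of -4.43 ± 0.27 (SE), limma adjusted p = 6.3e-09. ARHGAP27P2, a pseudogene, had 48.3, 49.6 and 49.5 TPM in the BRM014 libraries, against 3.75, 3.46 and 3.40 TPM in the DMSO libraries, a change of 3.47 ± 0.14 (SE), limma adjusted p = 5.8e-11, and reads of its parent gene could be counted there.

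Further runs of adjacent genes at least 2-fold lower held immune genes. On chromosome 11 IFITM1 (-2.64) and IFITM3 (-1.70), antiviral membrane proteins, lay beside SIGIRR (-1.58). On chromosome 1 IL24 (-1.77), IL10 (-1.21) and FCMR, a receptor for immunoglobulin M (-2.27), formed a run. So did PRDM16 (-2.50), MMEL1, PRXL2B and MEGF6. IL24 overlaps FCMR and PRXL2B overlaps MMEL1, so reads of the shared stretches cannot be assigned between them. On chromosome 6 PLEKHG1 (-2.80), MTHFD1L (-1.39) and ZBTB2 (-2.14) were neighbours. The run that rose held LRRIQ3 (1.15), FPGT (1.58), FPGT-TNNI3K (1.65), TNNI3K (1.28) and CRYZ (1.44) on chromosome 1, where FPGT and TNNI3K share exons with their readthrough gene. Replication-dependent histone genes, which lack poly(A) tails, had 4 higher and none lower of 38, 9 were higher without DMSO replicate 3, and without replicate 3 of both groups 10 were higher and their median was 0.53 in place of 0.15.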
